A study of Nannospalax ehrenbergi and Mus musculus with 14 samples.

Results

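The miR-106b-25 and miR-106a-363 clusters are the paralogs of the miR-17-92 oncogenic cluster, and 9 of their mature microRNAs were followed here out of the 1326 microRNA names in each of the 2 deposited tables. They were chosen by name: miR-106b-5p, miR-106b-3p, miR-93-5p, miR-93-3p and miR-25-3p of miR-106b-25, and miR-106a-5p, miR-18b-5p, miR-20b-5p and miR-363-3p of miR-106a-363. All 9 rows were present in both tables. Small RNA was sequenced in 14 libraries from tumor-bearing blind mole rats (*Spalax*), long-lived subterranean rodents in which cancer is rare, and from mice. Every animal had been given 3-methylcholanthrene (3MCA), a carcinogenic hydrocarbon, and was sampled at the injected side (IS), where a growth had formed, and at the uninjected side (UIS). The labels call both sides muscle tissue, and no library of an animal without 3MCA was analysed here.

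Animals are called by their number, after Sp for *Spalax* and M for mouse. The granuloma group was Sp600 and Sp976, females that bore a benign growth, sampled 14 and 16 months after the injection. The *Spalax* fibrosarcoma group was Sp2240, a female sampled after 18 months, and Sp2230, a male sampled after 30 months. The mouse fibrosarcoma group was the males M512, M1023 and M1019, sampled after 11, 12 and 14 weeks. *Spalax* received 1 mg of 3MCA in 500 µl and mice 200 µg in 200 µl. Mice were 3 to 4 months old and *Spalax* were estimated to be from 2 to over 10 years old, and the age of each *Spalax* was not used here. Each *Spalax* group thus held 2 libraries a side, from animals of different sex or sampling time, and each mouse group held 3. The mouse UIS library listed for M1019 is headed M1018 in its table, so it was used as a UIS replicate without a partner.

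MicroRNAs silence messenger RNAs that pair with their seed, bases 2 to 8 of the mature strand, so microRNAs with the same seed tend to share targets. Both clusters arose by duplication together with miR-17-92. The miR-106b-25 hairpins lie inside *Mcm7*, a gene for a subunit of the replicative helicase, which proliferating cells transcribe under E2F control. The miR-17 seed family is known for repressing cell cycle inhibitors, among them the mRNA of *Cdkn1a*, and miR-25 and its seed relatives for repressing the pro-apoptotic *Bcl2l11*. The X-linked miR-106a-363 cluster is silent or weakly expressed in most adult tissues.

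In the mouse genome (GRCm38, GENCODE M21) the miR-106b-25 hairpins occupy 498 bp on the minus strand of chromosome 5, with *Mir106b* at chr5:138165737-138165818, *Mir93* at chr5:138165523-138165610 and *Mir25* at chr5:138165321-138165404. All 3 lie within *Mcm7* (chr5:138164583-138172422, same strand), *Mir106b* wholly in introns and the other two overlapping an annotated *Mcm7* exon in at least 1 transcript. The 6 hairpins of miR-106a-363 occupy 875 bp on the minus strand of chromosome X, from *Mir106a* (chrX:52742503-52742567, overlapping an exon of the noncoding gene *Kis2*) through *Mir18b* (chrX:52742331-52742413) and *Mir20b* (chrX:52742113-52742192) to *Mir363* (chrX:52741693-52741767). The last 3 overlap no other annotated gene. The hairpins are printed because each carries a member, and the capitals mark the 7 bases that match a member's seed, each of which occurs once in its hairpin. They are mouse sequences on the DNA alphabet, 5′ to 3′, from GENCODE M21, and *Spalax* hairpins were not used here.
Mir106b, seeds of miR-106b-5p and then miR-106b-3p: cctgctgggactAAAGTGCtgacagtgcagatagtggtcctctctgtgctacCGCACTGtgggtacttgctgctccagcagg
Mir93, seeds of miR-93-5p and then miR-93-3p: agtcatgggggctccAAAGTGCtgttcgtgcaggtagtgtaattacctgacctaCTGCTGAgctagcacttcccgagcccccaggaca
Mir25, seed of miR-25-3p: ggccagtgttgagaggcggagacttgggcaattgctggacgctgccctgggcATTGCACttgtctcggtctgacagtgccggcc
Mir106a, seed of miR-106a-5p: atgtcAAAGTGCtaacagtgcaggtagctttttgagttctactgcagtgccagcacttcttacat
Mir18b, seed of miR-18b-5p: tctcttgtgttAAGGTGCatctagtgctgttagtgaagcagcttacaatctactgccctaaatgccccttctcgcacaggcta
Mir20b, seed of miR-20b-5p: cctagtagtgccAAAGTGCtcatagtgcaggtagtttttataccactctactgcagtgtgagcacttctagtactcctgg
Mir363, seed of miR-363-3p: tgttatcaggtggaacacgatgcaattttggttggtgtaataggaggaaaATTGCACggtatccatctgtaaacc

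The AAAGTGC seed of the miR-17 family is thus carried by miR-106b-5p, miR-93-5p, miR-106a-5p and miR-20b-5p, the AAGGTGC seed by miR-18b-5p, and the ATTGCAC seed by miR-25-3p and miR-363-3p. To compare the members with their miR-17-92 relatives, windows of 22 bases were taken from the hairpins, beginning 1 base before the seed, which is close to but need not be the mature strand.
miR-106b-5p: tAAAGTGCtgacagtgcagata
miR-93-5p: cAAAGTGCtgttcgtgcaggta
miR-106a-5p: cAAAGTGCtaacagtgcaggta
miR-17-5p: cAAAGTGCttacagtgcaggta
miR-20b-5p: cAAAGTGCtcatagtgcaggta
miR-20a-5p: tAAAGTGCttatagtgcaggta
miR-18b-5p: tAAGGTGCatctagtgctgtta
miR-18a-5p: tAAGGTGCatctagtgcagata
miR-25-3p: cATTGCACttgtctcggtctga
miR-363-3p: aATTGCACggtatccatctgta
miR-92a-3p, from *Mir92-1*: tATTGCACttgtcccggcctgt

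Of the X-linked members, 3 were close to their miR-17-92 counterparts, and miR-363-3p was not, with 12 of 22 bases different from miR-92a-3p. Counting from 1 at the 5′ end of the window, miR-106a-5p differed from miR-17-5p by A10T alone, miR-20b-5p from miR-20a-5p by C1T and C10T, and miR-18b-5p from miR-18a-5p by T18A and T20A. Reads that carry a sequencing error at such a base, or a *Spalax* base that differs from mouse there, could be counted for the neighbour, so the low counts of these 3 members are uncertain. The windows of miR-106b-5p and miR-93-5p, neighbours in 1 cluster, differed at 5 bases, and those of miR-25-3p and miR-363-3p at 13, none of them in the seed. No other name in the tables had the same reads as a member in every library.

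Library depth ranged from 2034574 to 13982842 microRNA reads and was lowest at the IS of Sp2240. The authors divided the reads of every library by its size factor, and the quotients are called normalized counts below. The *Spalax* and mouse tables were normalized separately, so levels are not compared between species. The microRNAs that mark skeletal muscle, 7 of 7 detected at the UIS, took between 27.7% and 37.3% of the reads at the UIS and between 0.00959% and 3.94% at the IS. Leukocyte microRNAs (4 of 4 detected) took up to 0.102% at the UIS and at least 0.323% at the IS, and fibroblast microRNAs (3 of 3) at most 1.00% and at least 3.02%. Endothelial microRNAs (2 of 2) took 0.323% to 1.10% at the UIS and 0.343% to 1.64% at the IS. Red-cell microRNAs (3 of 3) took 0.0539% to 0.544% at the UIS and 0.0926% to 0.849% at the IS. The epithelial list (5 microRNAs) took at most 0.00638% of any library, with miR-200a-3p not above 3 reads in the UIS libraries of mice and of *Spalax* with granuloma. In the *Spalax* fibrosarcoma IS libraries 2 of the muscle microRNAs, miR-133a-5p and miR-208b-3p, were not above that level. The share of the IS–UIS differences below that goes with this change of tissue was not tested, and in bulk samples fewer cells of a type and less RNA per cell cannot be told apart.

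Summed, the miR-106b-25 members were abundant in every library and the 4 followed members of the X-linked cluster were scarce. Single members did not all follow this split. MiR-93-3p of miR-106b-25 had only 19 to 292 reads in a library. At the UIS of Sp2230 and Sp2240 the X-linked miR-363-3p, with normalized counts of 1086 and 460, stood above miR-106b-5p, with 444 and 410. The X-linked hairpins *Mir19b-2* and *Mir92-2* give miR-19b-3p and miR-92a-3p, which miR-17-92 also gives and which are not counted here. The output of the whole X-linked cluster is therefore not known. Reads of the 5 miR-106b-25 members made up 0.127% to 0.236% of a UIS library and 0.439% to 1.29% of an IS library, with the highest shares in both *Spalax* fibrosarcomas (1.13% in Sp2230 and 1.29% in Sp2240). The share was higher at the IS in 6 of 6 animals with both sides. Within the cluster miR-25-3p took 62.9% to 75.9% of the reads, miR-93-5p 17.4% to 28.5%, miR-106b-3p 2.58% to 5.45% and miR-106b-5p 1.26% to 4.15%. The 4 miR-106a-363 members together made up between 0.000163% and 0.0128% of a library, 28.8 to 6957 times less than miR-106b-25.

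**Figure D1:**
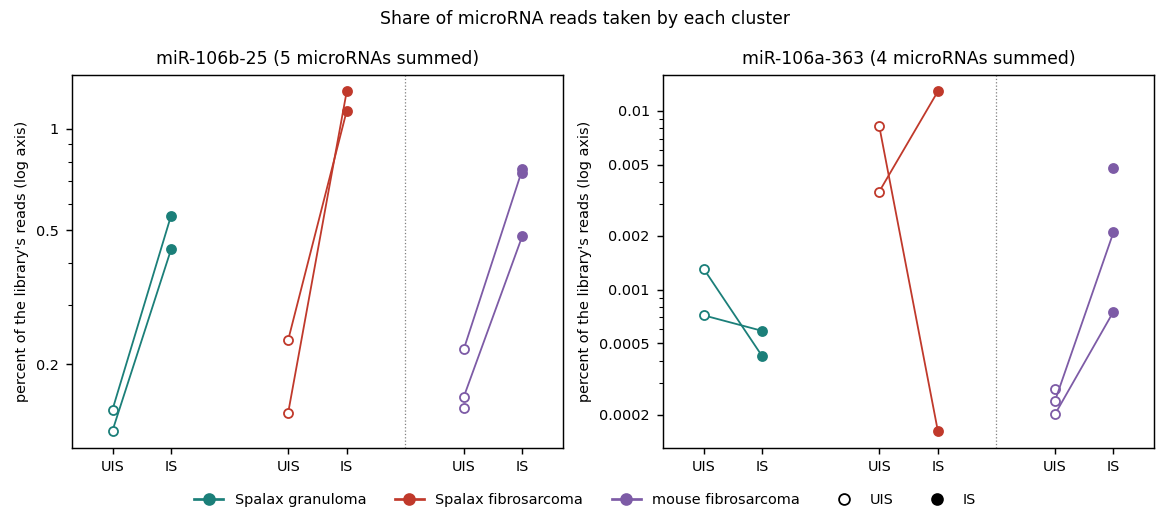
Percent of each library's microRNA reads on the 5 miR-106b-25 members (left) and the 4 miR-106a-363 members (right), on log axes, at the UIS (open points) and IS (filled points), with lines joining both sides of an animal. The miR-106b-25 share lies between 0.127% and 0.236% in the UIS libraries and between 0.439% and 1.29% in the IS libraries, whereas the miR-106a-363 share is 0.000163% at the IS of Sp2230 and is at its highest, 0.0128%, at the IS of Sp2240. The median microRNA tested also takes a larger share at the IS in each of the 3 groups.

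The questions put to the libraries were whether each growth differed from the untreated side, whether the granulomas and fibrosarcomas of *Spalax* did so differently, and how the mouse tumors compared with their own UIS. Of the 9 members, 7 reached a normalized count of 10 in at least 2 *Spalax* libraries, and the same 7 did so in at least 3 mouse libraries, and these were tested with limma on log2(normalized count + 1). MiR-106a-5p and miR-18b-5p did not reach it in either table. Fold changes are IS over UIS, on a scale that understates the change of microRNAs with few reads, and p-values were adjusted over all 447 *Spalax* or 547 mouse microRNAs tested.

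In *Spalax* fibrosarcoma miR-106b-5p, the strand with the miR-17 family seed, rose. Its normalized count in Sp2230 was 444 on the UIS and 1924 on the IS, and in Sp2240 410 and 1202, which is 4.33-fold and 2.93-fold. Both IS libraries stood above both UIS libraries of the group, as they did for 32.2% of all microRNAs tested. The log2 fold change was 1.83 (standard error 0.41, 95% interval 0.88 to 2.79, limma adjusted p = 0.0113). The call was kept under 10 of 10 other settings of the test, with adjusted p between 0.000207 and 0.0333. It was lost when UIS library Sp2230 (adjusted p = 0.0659) or UIS library Sp2240 (adjusted p = 0.0801) was left out, with log2 fold changes of 1.89 and 1.77. It was the 1 member of 7 past the threshold in this comparison, in which 37.4% of all microRNAs tested were past it. DESeq2 called 2 of the 7, miR-106b-5p and miR-93-3p, and 43.8% of all.

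The other miR-106b-25 members were also higher at the fibrosarcoma IS in both *Spalax*, short of the threshold. MiR-25-3p, the most abundant member and a seed relative of miR-92a, had normalized counts of 35058 (IS) and 24673 (UIS) in Sp2230 and of 42859 and 14665 in Sp2240. MiR-93-5p, with the same seed as miR-106b-5p, stood at 10617 against 7329 and at 11155 against 4540. For both, every IS library was above every UIS library. Their log2 fold changes were 1.03 (standard error 0.36, limma adjusted p = 0.0584) and 0.92 (standard error 0.35, adjusted p = 0.0781). The red-cell list took 0.270% (IS) and 0.544% (UIS) of the reads in Sp2230, and 0.825% and 0.221% in Sp2240. Its part in these values was not tested.

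The opposite arms were also higher at the IS in both animals. MiR-106b-3p, the 3p strand of the miR-106b hairpin, had normalized counts of 1486 (IS) against 1016 (UIS) in Sp2230 and 1736 against 546 in Sp2240. MiR-93-3p had 159 against 43.3 and 82.5 against 24.8. Their log2 fold changes were 1.11 (standard error 0.46, limma adjusted p = 0.0937) and 1.77 (standard error 0.65, adjusted p = 0.0660). Thus 5 of 5 tested miR-106b-25 members had both fibrosarcoma IS values above both UIS values, as had 32.2% of all microRNAs tested. The median log2 fold change over the 7 tested members was 1.03 against -0.23 over all microRNAs tested.

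**Figure D2:**
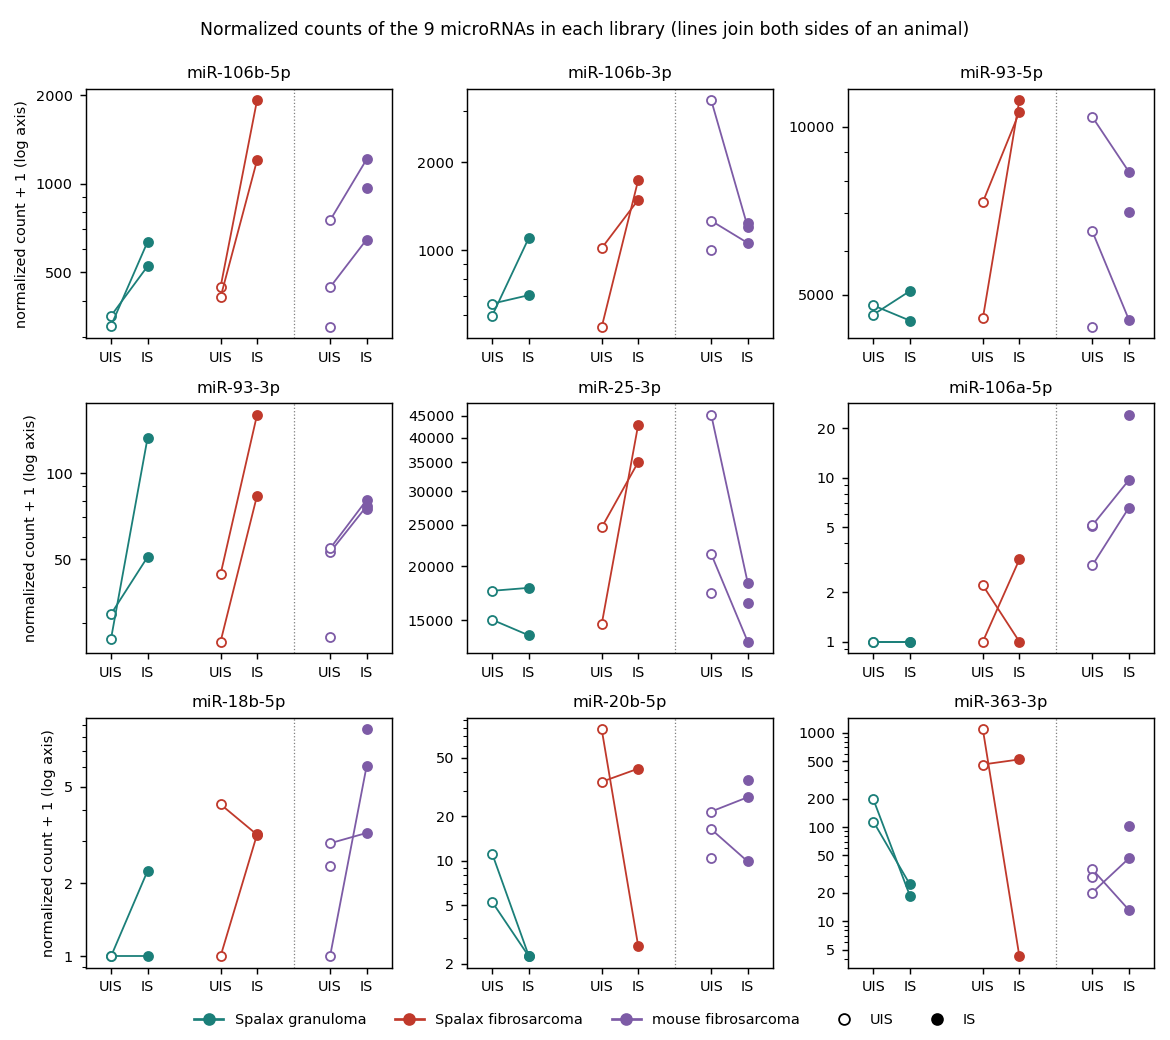
Normalized count plus 1 (log axes, a different range in each panel) of the 9 microRNAs in each library, at the UIS (open points) and IS (filled points), with lines joining both sides of an animal and a dotted line before the mouse libraries, which were normalized separately. MiR-106b-5p reaches 1924 and 1202 at the *Spalax* fibrosarcoma IS, and miR-363-3p lies at 3.27 at the IS of Sp2230 against 1086 at its UIS.

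In granuloma 0 of the 7 tested members passed the threshold, where 48.3% of all microRNAs tested passed it (216 of 447). At an unadjusted p under 0.05 limma also gave 0 of the 7, and among the other tools edgeR called 0 and DESeq2 1 (miR-93-3p, adjusted p = 0.0480, with 52.3% of all microRNAs called). The abundant members were nearly level between the sides. MiR-25-3p had normalized counts of 13815 (IS) against 15020 (UIS) in Sp600 and 17829 against 17548 in Sp976, and its log2 fold change was -0.05 (standard error 0.36, 95% interval -0.89 to 0.79). MiR-93-5p stood at 4497 against 4787 and at 5079 against 4608, with 0.02 (standard error 0.35, 95% interval -0.80 to 0.85). These intervals leave room for changes of close to 1 on the log2 scale in either direction.

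MiR-106b-5p was higher at the granuloma IS in both animals without passing the test, at 523 against 354 in Sp600 and at 633 against 328 in Sp976 (log2 fold change 0.75, standard error 0.41, limma adjusted p = 0.164). MiR-106b-3p was at 701 against 656 and at 1100 against 597 (log2 fold change 0.49, adjusted p = 0.406). MiR-93-3p was at 49.9 against 31.2 and at 132 against 25.4 (log2 fold change 1.5, standard error 0.65, adjusted p = 0.0928). For these 3 members both IS values were above both UIS values, as they were for 41.4% of all microRNAs tested.

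**Figure D3:**
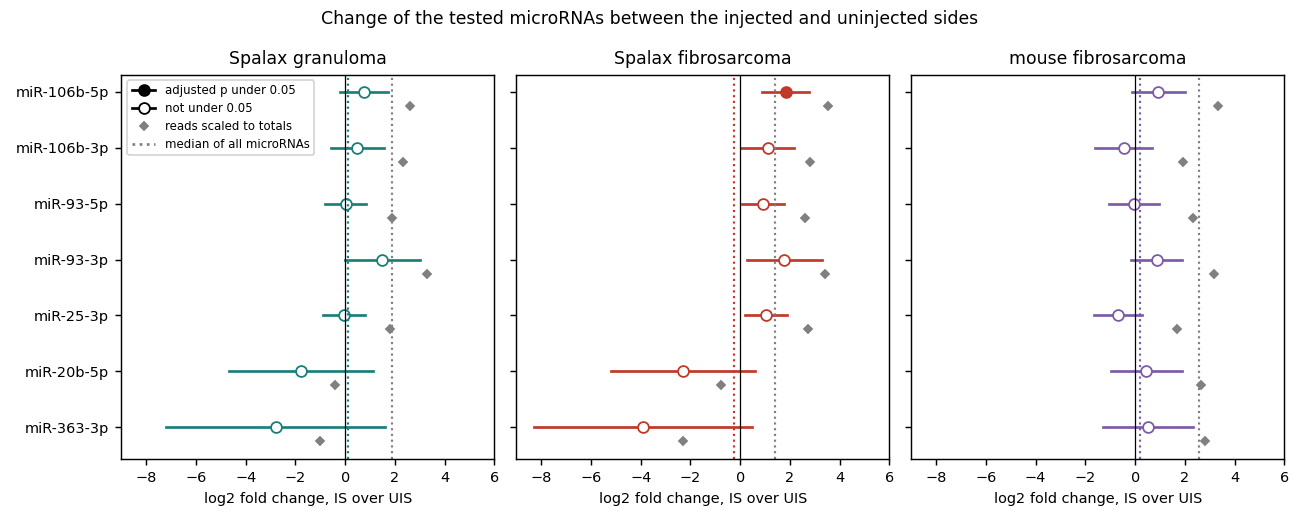
Log2 fold change of the 7 tested members, IS over UIS, in granuloma and in the fibrosarcomas of *Spalax* and mice, with 95% intervals from limma (circles, filled where the adjusted p was under 0.05) and, as grey diamonds, the values after scaling the reads to library totals, and with dotted lines at the median of all microRNAs tested under each scaling. The 1 filled circle is miR-106b-5p in *Spalax* fibrosarcoma at 1.83, and total scaling moves the members and the median together, in mouse fibrosarcoma from 0.21 to 2.57 for the median.

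Set against each other, the granuloma and fibrosarcoma changes of *Spalax* did not differ beyond the error for any tested member (0 of 7 by limma, 0 also at an unadjusted p under 0.05 and by edgeR and DESeq2, with 3.8% of all microRNAs past the threshold). The granuloma change was smaller than the fibrosarcoma change by 1.08 on the log2 scale for miR-106b-5p (granuloma minus fibrosarcoma -1.08, 95% interval -2.43 to 0.27, limma adjusted p = 0.367) and for miR-25-3p (-1.08, 95% interval -2.27 to 0.11, adjusted p = 0.284). For miR-93-5p the difference was -0.89 (adjusted p = 0.381). For miR-363-3p it was 1.11 (adjusted p = 0.845) with limma and -1.09 with edgeR (adjusted p = 0.832), and without the IS library of Sp2240 it was 4.57 with limma (adjusted p = 0.0410).

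Between the growths themselves, miR-25-3p was higher in the fibrosarcomas than in the granulomas, at 35058 and 42859 against 13815 and 17829. The log2 difference was 1.30 (standard error 0.36, limma adjusted p = 0.0427), and it was the 1 of 7 tested members past the threshold, with 18.8% of all microRNAs past it. This call passed under 5 of 8 other settings and was lost whichever of the 4 IS libraries was left out, with adjusted p between 0.0611 and 0.166. MiR-106b-5p differed by 1.4 (standard error 0.41, adjusted p = 0.0527) and miR-93-5p by 1.19 (standard error 0.35, adjusted p = 0.0552). The UIS of the 2 kinds of animal gave 0 of 7 members and 0% of all microRNAs past the threshold, with 0 calls by edgeR and by DESeq2 too and 5 microRNAs at an unadjusted limma p under 0.05. For miR-25-3p, miR-93-5p and miR-106b-5p the UIS differences were 0.23, 0.30 and 0.32 on the log2 scale.

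In mouse fibrosarcoma 0 of the 7 tested members passed limma's threshold, where 57.8% of all microRNAs tested did (316 of 547). At an unadjusted p under 0.05 limma gave 0 of the 7, and edgeR and DESeq2 called 0. MiR-106b-5p had normalized counts of 645, 966 and 1209 at the IS of M1023, M1019 and M512 and of 443, 749 and 324 at the UIS of M1023, of M512 and in the unpaired library. The ranges overlapped, and the log2 fold change was 0.93 (standard error 0.45, limma adjusted p = 0.110). MiR-93-3p was between 74.0 and 79.5 at the IS and between 25.8 and 53.5 at the UIS (log2 fold change 0.86, adjusted p = 0.131).

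The abundant members of the mouse did not stand higher at the IS. MiR-25-3p was at 13354, 16405 and 18329 in the IS libraries and at 17375, 21380 and 45202 in the UIS libraries (log2 fold change -0.69, standard error 0.41, adjusted p = 0.184). Its highest value, 45202, came from the UIS library of M512, in which the red-cell list (3 of 3 detected) also had its highest share of the mouse libraries, 0.494% against 0.0539% to 0.227% in the others, and its part in the value was not tested. Without that library the log2 fold change was -0.28. MiR-93-5p was at 4515, 7035 and 8305 (IS) against 4379, 6494 and 10410 (UIS) (log2 fold change -0.06, 95% interval -1.05 to 0.94). MiR-106b-3p was at 1058, 1200 and 1240 (IS) against 1003, 1260 and 3253 (UIS) (log2 fold change -0.46, adjusted p = 0.432, and 0.05 without the UIS library of M512). The other arm of the *Mir25* hairpin, miR-25-5p, rose in mice, where its log2 fold change was 1.53 (standard error 0.48, limma adjusted p = 0.0321), at 14 to 27 reads a library at the UIS and 95 to 226 at the IS. It was 1 of the 57.8% of microRNAs called there. In *Spalax* fibrosarcoma its log2 fold change was 1.73 (limma adjusted p = 0.0763), and in granuloma 0.32 (adjusted p = 0.721).

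These directions depend on how libraries are scaled, which differ in their muscle microRNAs as given above. With reads scaled to library totals, the median over all tested microRNAs went up from 0.13 to 1.90 (granuloma), -0.23 to 1.4 (*Spalax* fibrosarcoma) and 0.21 to 2.57 (mice). Of all calls, 114 of 216, 68 of 167 and 176 of 316 were toward the IS with the size factors, and 253 of 303, 193 of 234 and 373 of 404 with the totals. Of the 7 tested members, 5, 5 and 7 were then called higher at the IS, among them all 5 of miR-106b-25. So were 253 of 447, 193 of 447 and 373 of 547 of all microRNAs tested. Relative to the median, all 7 kept their sign in all 3 comparisons, and the widest move was that of miR-20b-5p in granuloma, from -1.89 to -2.33. MiR-106b-5p in *Spalax* fibrosarcoma stood 2.06 above the median with the authors' size factors and 2.11 above it with total scaling, and miR-25-3p in mice stood at -0.90 and -0.88.

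The X-linked members differed widely between *Spalax* animals, and none of them passed limma's threshold in the fits of all 8 libraries. Between the growths DESeq2 called miR-363-3p and miR-20b-5p higher in fibrosarcoma (log2 differences 3.74 and 4.11, adjusted p = 0.0227 and 0.04996). These were 2 of its 5 calls among the 7 members, with 24.8% of all microRNAs called. For miR-363-3p the IS of Sp2240 was at 521, but that of Sp2230, at 3.27, lay below both granuloma IS values. For miR-20b-5p the IS reads were 19 in Sp2240 and 3 in Sp2230, against 1 in each granuloma. MiR-363-3p, which has the seed of miR-25 and miR-92a, gave 90.5% or more of the reads of the followed miR-106a-363 members in every *Spalax* library but 1. In granuloma its normalized count in Sp600 was 113 (UIS) against 23.7 (IS), and in Sp976 196 against 17.7, which is 4.78-fold and 11.0-fold higher at the UIS. The log2 fold change was -2.80 (standard error 1.88, 95% interval -7.19 to 1.59, limma adjusted p = 0.253). Fitted with limma on the 4 granuloma libraries alone, in place of all 8 *Spalax* libraries, the same change had an adjusted p of 0.0154. That fit called 214 of all 447 microRNAs tested.

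The 2 fibrosarcoma animals parted from each other. In Sp2230 miR-363-3p had 902 reads at the UIS, a normalized count of 1086, but 6 reads at the IS, a normalized count of 3.27, in a library of 7991923 reads. In Sp2240 it was at 460 at the UIS and 521 at the IS, the latter from 240 reads. The log2 fold change over both was -3.91 (standard error 1.88, 95% interval -8.30 to 0.49, limma adjusted p = 0.142). Without the IS library of Sp2240 it was -7.37 (adjusted p = 0.00190), and without that of Sp2230 it was -0.44 (adjusted p = 0.665), so the value rests on a single animal. Animal Sp2230 was the male sampled at 30 months and Sp2240 the female sampled at 18 months, and sex, time and the individual cannot be told apart.

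MiR-20b-5p, with the miR-17 family seed and from the same cluster, showed the same pattern at lower counts. Its normalized counts at the UIS and IS were 77.0 and 1.63 (64 and 3 reads) in Sp2230, 33.4 and 41.2 in Sp2240, 4.25 and 1.25 (3 and 1 reads) in Sp600 and 10.2 and 1.27 (8 and 1 reads) in Sp976. Both granuloma IS values thus stand for 1 read each. Log2 fold changes were -1.76 (standard error 1.24, limma adjusted p = 0.274) in granuloma and -2.30 (standard error 1.24, adjusted p = 0.184) in fibrosarcoma, the latter -4.30 without the IS library of Sp2240 (adjusted p = 0.0147). Between the UIS of fibrosarcoma and granuloma animals miR-20b-5p had the largest difference of the members, 2.76 on the log2 scale (limma adjusted p = 1).

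MiR-106a-5p and miR-18b-5p could hardly be measured in *Spalax*. MiR-106a-5p had 0 reads in all 4 granuloma libraries, which allows a share of up to 2.4e-05% to 8.5e-05% of a library by counting error alone, and at most 1 read in a fibrosarcoma library. MiR-18b-5p had between 0 and 4 reads in any *Spalax* library. No fold change is given for them, and their absence from these tissues cannot be read from mouse-based names.

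In mice all 4 members of the X-linked cluster were seen at low level, and neither of the 2 that could be tested passed the threshold. MiR-363-3p was at 12.2, 45.5 and 100 on the IS of M512, M1023 and M1019 and at 34.6, 19.2 and 28.5 at the UIS of M512, of M1023 and in the unpaired library, higher at the IS in 1 and lower in the other of the 2 mice with both sides (log2 fold change 0.52, standard error 0.77, limma adjusted p = 0.571). MiR-20b-5p lay between 8.89 and 34.1 at the IS and between 9.5 and 20.6 at the UIS (log2 fold change 0.45, adjusted p = 0.542). In IS libraries miR-106a-5p had 5, 12 and 64 reads against 1, 3 and 3 in UIS libraries, and miR-18b-5p 2, 7 and 21 against 0, 1 and 1. The IS of M1019 was the highest library for each of the 4.

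Ratios between members of the same library do not depend on the scaling, and 8 of them, for which every library of these animals held at least 10 reads of both, were compared between the sides of the 6 animals with both. At the IS miR-106b-5p and miR-93-3p made up more of the cluster relative to miR-93-5p in 6 of 6 animals, short of the corrected threshold. For each read of miR-106b-5p, Sp600 and Sp976 held 13.5 and 14.1 reads of miR-93-5p on the UIS and 8.6 and 8.02 on the IS. In fibrosarcoma the ratio was 16.5 at the UIS and 5.52 at the IS of Sp2230, and 11.1 and 9.28 in Sp2240. In mice it was 14.6 and 7.0 in M1023 and 13.9 and 6.87 in M512. The log2 ratio was lower at the IS in 6 of 6 animals, on average by -0.89 ± 0.44 (SD, n = 6; exact sign-flip permutation test, two-sided, p = 0.0312, the smallest that 6 pairs allow, adjusted p = 0.0833 over the 8 ratios). It did not pass the correction, which a ratio at this smallest p cannot do unless most of the 8 ratios reach that p too. The correction therefore decides little for a single ratio here.

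The same held for the ratio of miR-25-3p to miR-106b-5p, with a mean log2 difference of -1.07 ± 0.70 (SD, n = 6; exact sign-flip permutation test, p = 0.0312, adjusted p = 0.0833). It was lower in 6 of 6 animals, but in Sp2240 it was 35.7 on both sides. The ratio of miR-93-5p to the other strand of its hairpin, miR-93-3p, was also lower at the IS in 6 of 6, by -1.11 ± 0.62 (SD, n = 6; exact sign-flip permutation test, p = 0.0312, adjusted p = 0.0833), with as few as 20 reads of miR-93-3p in a library. For the miR-106b hairpin the 5p over 3p ratio was higher at the IS in 5 of 6, by 0.82 ± 0.88 (SD, n = 6; exact sign-flip permutation test, p = 0.0938, adjusted p = 0.150). MiR-25-3p over miR-93-5p differed by -0.18 ± 0.42 (SD, n = 6; exact sign-flip permutation test, p = 0.406).

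The balance of the members of the 2 clusters shifted one way in every *Spalax* and did not do so in the mice. The log2 ratio of miR-106a-363 to miR-106b-25 reads was lower at the IS in 4 of 4 *Spalax*, with differences of -2.05, -3.49, -1.31 and -7.86 in Sp600, Sp976, Sp2240 and Sp2230. It was higher in 2 of 2 mice, by 0.14 in M512 and 1.53 in M1023. The miR-106a-363 reads at the UIS and IS were 28 and 26 in M512, so its direction is uncertain, and 32 and 118 in M1023. At the *Spalax* IS they were between 13 and 261. Over the 6 animals it differed by -2.17 ± 3.29 (SD, n = 6; exact sign-flip permutation test, p = 0.188, adjusted p = 0.250), and the difference between the species was not tested.

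**Figure D4:**
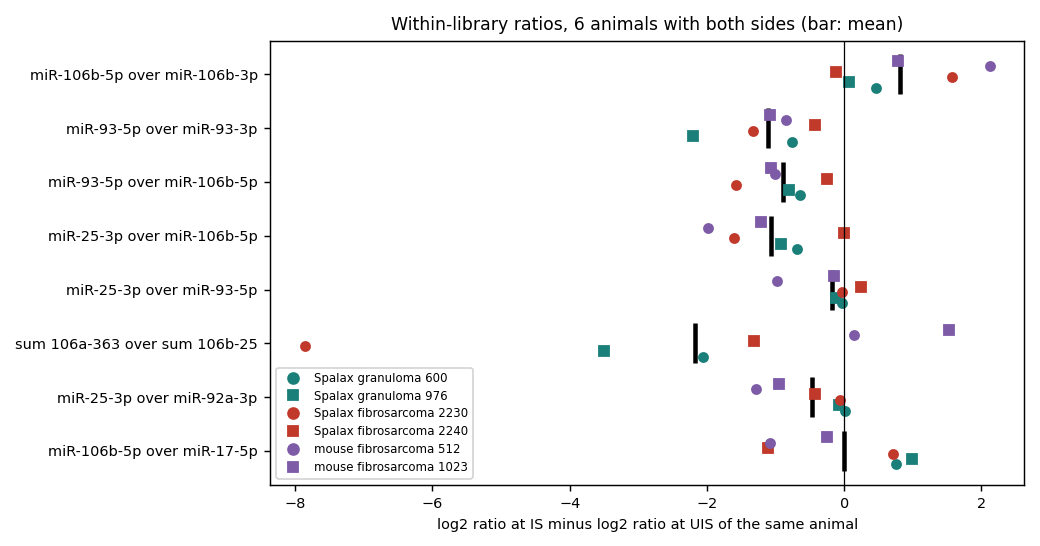
Change of 8 log2 read ratios from UIS to IS within each of the 6 animals with both sides (points, color by group and shape by animal) with the mean as a bar. All 6 points lie below 0 for miR-93-5p over miR-93-3p and miR-93-5p over miR-106b-5p, and the point of Sp2240 is at -0.00 for miR-25-3p over miR-106b-5p. The sum of miR-106a-363 over miR-106b-25 is lower in all 4 *Spalax* and higher in both mice, in M512 by only 0.14.

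The miR-17-92 paralogs were called more often than the members in the same libraries, a contrast that was not tested. Of their 12 names in the tables, 10 were tested, and the IS was called higher for 2 (granuloma), 8 (*Spalax* fibrosarcoma) and 6 (mice), with 0 lower in each. Of all microRNAs tested, 48.3%, 37.4% and 57.8% were called in either direction, and 114 of 447, 68 of 447 and 176 of 547 toward the IS. With the animal as a block in the fit the paralogs called were 1, 5 and 4. That fit called 210 of 447, 151 of 447 and 227 of 547 of all microRNAs. Their median log2 fold change was 0.30, 2.29 and 1.76, against 0.02, 1.03 and 0.45 for the 7 tested members, whose median in mice was -0.20 with the block. Of the seed partners of members, miR-18a-5p rose in all 3 comparisons, by 1.59, 3.28 and 2.93 (limma adjusted p = 0.0379, 0.00300 and 0.00422). MiR-17-5p rose in *Spalax* fibrosarcoma by 2.03 (adjusted p = 0.0107), to 1324 and 2580 at the IS against 501 and 408 at the UIS in Sp2230 and Sp2240, and had log2 fold changes of -0.11 in granuloma and 1.19 in mice (adjusted p = 0.862 and 0.0514). MiR-20a-5p, the counterpart of miR-20b-5p, passed in none of the 3 comparisons, at -0.66, 1.34 and 0.48 (limma adjusted p = 0.318, 0.0781 and 0.414). MiR-92a-3p rose in *Spalax* fibrosarcoma by 1.26 (adjusted p = 0.0379). It was nearly level in granuloma and mice, at -0.02 and 0.19 (adjusted p = 0.977 and 0.585). The reads of miR-92a-3p, and those of miR-19b-3p, come from hairpins in both miR-17-92 and miR-106a-363 and cannot be told apart by cluster.

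Within libraries, miR-106b-5p kept no fixed relation to miR-17-5p. Their log2 ratio was higher at the IS in 3 of 6 animals and lower in 3, with a mean difference of 0.00 ± 0.95 (SD, n = 6; exact sign-flip permutation test, p = 1). It was higher in Sp600, Sp976 and Sp2230, by 0.75, 0.98 and 0.71, and lower in Sp2240, M512 and M1023, by -1.11, -1.09 and -0.24. MiR-25-3p over miR-92a-3p differed by -0.46 ± 0.54 (SD, n = 6; exact sign-flip permutation test, p = 0.0625, adjusted p = 0.125), lower at the IS in 5 of 6.

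Across the 8 *Spalax* libraries, 440 microRNAs outside the members were compared with miR-106b-5p by their log2 values. The 3 that followed it most closely were miR-33-5p, miR-342-5p and miR-324-3p, with Pearson's r of 0.97, 0.96 and 0.95. For miR-363-3p they were miR-1843a-5p (0.93), miR-1839-5p (0.91) and miR-1843b-5p (0.90). In the 6 mouse libraries, of 540 compared, they were miR-148b-5p (0.98), miR-130b-3p (0.94) and miR-15b-3p (0.92) for miR-106b-5p, and miR-423-5p (0.97), miR-423-3p (0.95) and miR-326-3p (0.93) for miR-363-3p. The lists of the 2 species shared no name. These correlations are descriptions over few libraries that share their side, muscle content and scaling.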

How the data were processed

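Small RNA libraries of 14 tissue samples were analysed. The authors trimmed adaptors, mapped the reads with mirDeep and deposited, for each species, a signal per microRNA and library that is a count of reads divided by a size factor. The submitters' processing notes also name TopHat 1.4.1, HTSeq, DESeq and GRCm38. Whole reads were recovered from 100% of the deposited values (tolerance 0.01 reads) and were used for shares, ratios and the count-based alternatives. The *Spalax* table held 5 further columns of mouse libraries, which were not used. Groups came from the sample labels. Any 2 libraries of a group differed by far more than sampling noise (chi-square per degree of freedom at least 189.6).

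MicroRNAs were kept when 2 or more *Spalax* libraries, or 3 or more mouse libraries, reached a value of 10, and were tested with limma 3.58.1 (R 4.3.3) on log2(value + 1), with 1 mean per group and side and a trend in the prior variance, in 1 fit of 8 *Spalax* libraries and 1 of 6 mouse libraries. The Benjamini-Hochberg threshold was 0.05. Ratios used log2 of reads plus 0.5 and an exact two-sided sign-flip test over animals. Alternatives were edgeR 4.0.16, DESeq2 1.42.0, other scalings, filters and pseudocounts, the animal as a block, and leaving out each library. The scripts were tested on simulated data.

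Both sides of a number came from the same animal, so the libraries are paired by design. Their deviations from the group means correlated at 0.0933 in granuloma, 0.00405 in *Spalax* fibrosarcoma, and 0.122 and -0.107 in mice M512 and M1023. Named in the text were the 9 members, their miR-17-92 relatives and opposite arms, and the 3 microRNAs most correlated with miR-106b-5p and miR-363-3p in each table. The members, the lists and the tests were chosen with earlier results of these data known. Libraries are separate samples, the 95% intervals are limma's and rest on the spread between libraries, and the read floors (3 reads) cover counting error only.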

Additional observations from a re-analysis of the deposited data

Results flagged for a closer look

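The members miR-106b-3p, miR-93-5p and miR-25-3p stood out with the authors' size factors, where both mice with both sides moved one way and every *Spalax* of a group the opposite way. With reads scaled to library totals, their log2 fold changes over all mouse libraries were 1.92, 2.33 and 1.69, so the opposite directions depend on the scaling. None of these differences was tested, the 2 tables were normalized separately, and each group here holds 2 animals. For miR-106b-3p the mean log2 change in mouse fibrosarcoma was -1.95 relative to that in *Spalax* fibrosarcoma and -1.33 relative to that in granuloma. It was lower at the IS in mice M1023 and M512 (-0.25 and -1.44) and higher in Sp2230 and Sp2240 (0.55 and 1.67) and Sp600 and Sp976 (0.10 and 0.88). For miR-93-5p the mouse change was -1.34 relative to that of *Spalax* fibrosarcoma (-0.52 and -0.33 in the mice, 0.53 and 1.30 in *Spalax*). For miR-25-3p it was -2.02 (-0.68 and -1.30 in the mice, 0.51 and 1.55 in *Spalax*). The IS library of mouse M1019 has no partner and does not enter these values. Its normalized count was above that of the unpaired UIS library for miR-106b-3p (1240 against 1003) and miR-93-5p (7035 against 4379). For miR-25-3p it was below it (16405 against 17375).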

How the results depend on the processing

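Scaling the reads to library totals, with or without the muscle list, raised the number of members past the threshold to 5 in granuloma, 5 in *Spalax* fibrosarcoma, 7 in mice and 3 between the growths. Of all microRNAs, 303 of 447, 234 of 447, 404 of 547 and 88 of 447 then passed (272, 202, 370 and 85 without the muscle list). Total scaling turned miR-25-3p in granuloma to 1.80 (1.15 without the muscle list) and, in mice, miR-106b-3p to 1.92 (1.46), miR-93-5p to 2.33 (1.87) and miR-25-3p to 1.69 (1.24), because the size factors of the sides change by construction. DESeq2 gave 1 member in granuloma, 2 in *Spalax* fibrosarcoma and 5 between the growths (234, 196 and 111 of all 447 microRNAs). The granuloma libraries fitted alone gave 1 (214 of all 447). For the comparison between the growths edgeR, no filter and no trend gave 0. The number of all microRNAs for which the *Spalax* changes differed (17) was 61 with DESeq2 and 0 with a pseudocount of 0.1 or no filter. With the animal as a replicate block it was 5, no call of a member changed, and the miR-17-92 paralogs called were 1, 5 and 4 in place of 2, 8 and 6. All microRNAs called with the block were 210 (granuloma), 151 (*Spalax* fibrosarcoma) and 227 (mice), in place of 216, 167 and 316. The IS less UIS difference of the log2 ratio of miR-25-3p to miR-93-5p was 0.0187 in *Spalax* alone. Apart from the construction of the scalings, the cause was not tested. Leaving out 1 library at a time gave 129 to 193 calls in granuloma, 77 to 155 in *Spalax* fibrosarcoma, 44 to 87 between the growths and 0 to 39 for the difference of the changes, and 0 to 3, 0 to 2 and 0 to 1 members in the last 3 of these in that order. The lowest counts came without UIS library Sp976 in granuloma, UIS library Sp2240 in fibrosarcoma and IS library Sp600 between the growths. Leaving out 1 animal put the IS less UIS difference of the log2 ratio of miR-106b-5p to miR-17-5p between -0.195 and 0.223 (-0.141 without Sp2230 and -0.149 without Sp600). Of 378 other values 323 kept their direction and side of the threshold. With 2 libraries a side, changes of the abundant members are bounded only by wide intervals, and miR-363-3p and miR-20b-5p are limited by the spread between animals and by few reads.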
